A study of Arabidopsis thaliana with 8 samples.

Results

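The RBOH genes of Arabidopsis thaliana, RBOHA to RBOHJ, were followed in whole seedlings that overexpressed WIN1. Members were the loci to which the array files assign a non-control probe by locus name. All 10 RBOH loci were found among the 25665 loci named on the array, each with 1 probe in 1 spot. RBOHA (AT5G07390), RBOHB (AT1G09090), RBOHC (AT5G51060), RBOHD (AT5G47910), RBOHE (AT1G19230), RBOHF (AT1G64060), RBOHG (AT4G25090) and RBOHI (AT4G11230) were tested, 8 of the 20441 genes tested in all. RBOHH (AT5G60010) and RBOHJ (AT3G45810) were not, because their probes were not well above background on any array.

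RBOH proteins are NADPH oxidases of the plasma membrane. They pass electrons from cytosolic NADPH across the membrane to oxygen, and the superoxide formed outside the cell is converted to hydrogen peroxide. Calcium binding to the N-terminal part and phosphorylation by immune and calcium-dependent kinases switch the enzymes on. In seedlings the family is known for the oxidative burst of immunity (RBOHD, with RBOHF), stomatal closure and lignification of the Casparian strip (RBOHF), and root hair growth (RBOHC).

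The 35S:WIN1 seedlings carried the construct 35S:WIN1:NOS in the Columbia-0 ecotype, 4 samples, and were set against 4 vector control samples of the same ecotype, whose genotype field reads wild type. WIN1 encodes an AP2/ERF transcription factor known for its part in cuticle formation, and the viral 35S promoter drives it in most cell types rather than in its own. Both groups were 2 weeks old and grown on MS agar with 1% sucrose under 16 h light and 8 h dark at 23 °C. Several seedlings from a shared plate made up a sample. The labels do not say whether samples came from separate plates or how many transgenic lines were used, so p-values cover only the spread among these samples, and that spread may be technical.

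Each sample was hybridised in 1 colour to its own Agilent array. A value is the log2 processed signal minus the array's 75th percentile of non-control spots, so a negative value lies below that percentile. The 75th percentile was 997 to 2490 intensity units on 35S:WIN1 arrays and 1790 to 2354 on control arrays. The WIN1 probe read 5.62, 5.44, 4.50 and 3.85 in 35S:WIN1 replicates 1 to 4 and -9.10, -6.07, -9.32 and -8.34 in control replicates 1 to 4, where it was well above background on 1 of 4 arrays. Its log2 difference was 13.06, or 11.91 once signals under the detection floor of an array were set to that floor. Each genotype occupied a slide of its own, so effects of genotype and slide cannot be told apart. In whole seedlings, fewer cells of a type and less RNA per cell also cannot be told apart.

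The family did not move as one. RBOHB, RBOHE and RBOHF were higher in 35S:WIN1 and RBOHG was lower, by limma at an adjusted p under 0.05. RBOHA, RBOHC, RBOHD and RBOHI did not pass. Thus 3 of 8 tested members were higher, where 15.1% of all genes tested were, and 1 of 8 was lower, where 20.2% of all genes were. In either direction 50% of members were called, beside 35.3% of all genes. The groups did not overlap for the same 4 members, 3 with 35S:WIN1 higher and 1 with it lower, which held for 35.7% of all genes (15.4% higher and 20.3% lower). The median log2 difference was 0.62 over the 8 members and -0.04 over all genes tested. All 8 probes were well above background on all 8 arrays, so none entered the test through one group alone.

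**Figure D1:**
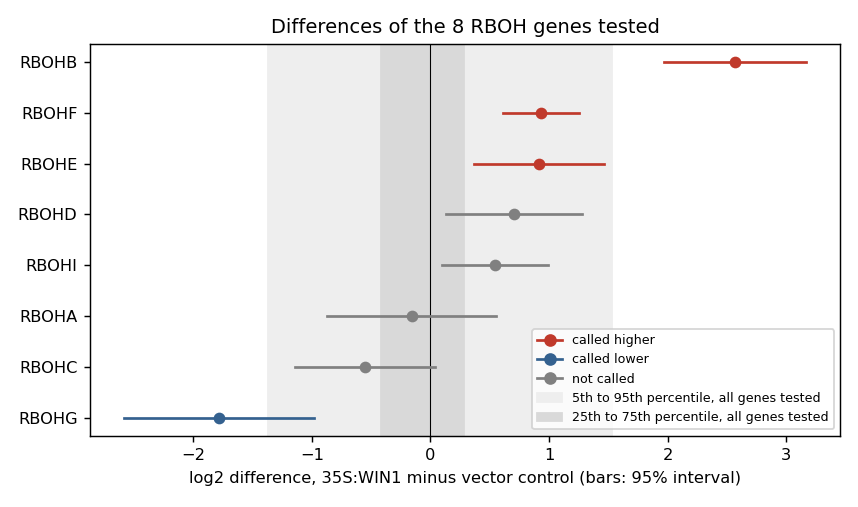
Log2 difference of each tested RBOH gene (35S:WIN1 minus vector control, dots) with its 95% interval from limma (bars); shaded bands hold the middle of the differences of all genes tested. RBOHB at 2.57 and RBOHG at -1.78 lie outside the band from the 5th to the 95th percentile, and RBOHE at 0.91 and RBOHF at 0.93 lie inside it.

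RBOHB, known for a role in seed after-ripening and germination, differed most among the members. It read -0.09, -0.94, 0.21 and -0.76 in 35S:WIN1 replicates 1 to 4 and -3.28, -2.87, -2.89 and -2.83 in control replicates 1 to 4. The lowest 35S:WIN1 array lay far above the highest control array, and 35S:WIN1 replicates 1 and 3 were the higher pair. The means were -0.40 ± 0.54 in 35S:WIN1 and -2.97 ± 0.21 in controls (SD, n = 4 each). RBOHB was thus 5.94-fold higher (log2 difference 2.57, SE 0.26, 95% interval 1.97 to 3.17, limma adjusted p = 0.000369). Its difference stood at percentile 97.8 of all genes tested.

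RBOHF, the partner of RBOHD in defence and an enzyme of guard cells and of the endodermis, had the tightest groups. It read -0.57, -1.01, -0.89 and -1.17 in 35S:WIN1 replicates 1 to 4 and -1.91, -1.70, -1.87 and -1.89 in control replicates 1 to 4, with no overlap. The means were -0.91 ± 0.25 and -1.84 ± 0.10 (SD, n = 4 each), in 35S:WIN1 and control. RBOHF was 1.91-fold higher (log2 difference 0.93, SE 0.14, 95% interval 0.61 to 1.25, limma adjusted p = 0.00198).

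RBOHE, known for its part in tapetum degeneration during pollen development, was higher by almost the same amount but with more spread. It read -1.30, -1.40, -1.25 and -2.08 in 35S:WIN1 replicates 1 to 4 and -2.85, -2.09, -2.57 and -2.17 in control replicates 1 to 4. The groups did not overlap, but 35S:WIN1 replicate 4 nearly touched control replicate 2. RBOHE was 1.88-fold higher (log2 difference 0.91, SE 0.24, 95% interval 0.37 to 1.46, limma adjusted p = 0.0193). The call was lost when 1 of 4 single arrays was left out: the adjusted p was 0.0541 without 35S:WIN1 replicate 1, 0.0524 without 35S:WIN1 replicate 3, 0.05 without control replicate 1 and 0.0517 without control replicate 3.

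RBOHG was the member that fell. It read -4.88, -3.94, -4.03 and -4.73 in 35S:WIN1 replicates 1 to 4 and -3.30, -2.04, -2.99 and -2.11 in control replicates 1 to 4. Every 35S:WIN1 array was below every control array, although controls 1 and 3 were clearly lower than controls 2 and 4. The means were -4.40 ± 0.48 in 35S:WIN1 and -2.61 ± 0.63 in controls (SD, n = 4 each), a log2 difference of -1.78 (SE 0.35, 95% interval -2.58 to -0.98, limma adjusted p = 0.00608). RBOHG was 3.44-fold lower, at percentile 3.2 of all genes tested. With normexp background correction the log2 difference was -0.96 (adjusted p = 0.0209). In the RefSeq annotation RBOHG overlaps CHLM, which encodes a methyltransferase of chlorophyll synthesis and which also fell, by 0.76 on the log2 scale (SE 0.12, limma adjusted p = 0.00283). How the RBOHG probe lies relative to that overlap was not tested.

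RBOHD, the oxidase of the immune burst, just missed the threshold. It read 2.49, 1.81, 2.60 and 3.0 in 35S:WIN1 replicates 1 to 4 and 1.59, 1.77, 1.59 and 2.14 in control replicates 1 to 4. The single crossing pair was 35S:WIN1 replicate 2, which lay below control replicate 4. The log2 difference was 0.70 (SE 0.25, 95% interval 0.13 to 1.28), with an unadjusted p of 0.0221 and a limma adjusted p of 0.0589. Without 35S:WIN1 replicate 2, left out because it crossed, the difference was 0.93 and the adjusted p 0.0122. With any other single array left out, RBOHD was not called (adjusted p of 0.0506 to 0.135).

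RBOHI behaved likewise with the odd array elsewhere. Its probe read -3.69, -3.48, -3.72 and -4.36 in 35S:WIN1 replicates 1 to 4 and -4.49, -4.10, -4.42 and -4.41 in control replicates 1 to 4. 35S:WIN1 replicates 1 to 3 lay above all controls, and replicate 4 lay among them. The log2 difference was 0.54 (SE 0.20, 95% interval 0.09 to 0.99, limma adjusted p = 0.0613), and without 35S:WIN1 replicate 4 it was 0.73 (adjusted p = 0.00403). With any other single array left out, RBOHI was not called (adjusted p of 0.0633 to 0.137).

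RBOHC, also known as RHD2, supplies the reactive oxygen of growing root hairs. It read -2.26, -2.11, -1.24 and -2.10 in 35S:WIN1 replicates 1 to 4 and -1.81, -1.08, -1.45 and -1.16 in control replicates 1 to 4. 35S:WIN1 replicates 1, 2 and 4 were below all controls, and replicate 3 was among them. The log2 difference was -0.55 (SE 0.26, 95% interval -1.14 to 0.04, limma adjusted p = 0.128). Without 35S:WIN1 replicate 3 it was -0.78, with an adjusted p of 0.0231. With any other single array left out, RBOHC was not called (adjusted p of 0.0877 to 0.274).

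RBOHA read -2.74, -3.19, -2.87 and -4.11 in 35S:WIN1 replicates 1 to 4 and -3.48, -2.69, -2.95 and -3.15 in control replicates 1 to 4. The groups overlapped fully except for 35S:WIN1 replicate 4, which was the lowest of all. The log2 difference was -0.16 (SE 0.31, limma adjusted p = 0.720), and its 95% interval of -0.87 to 0.55 holds changes in either direction.

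**Figure D2:**
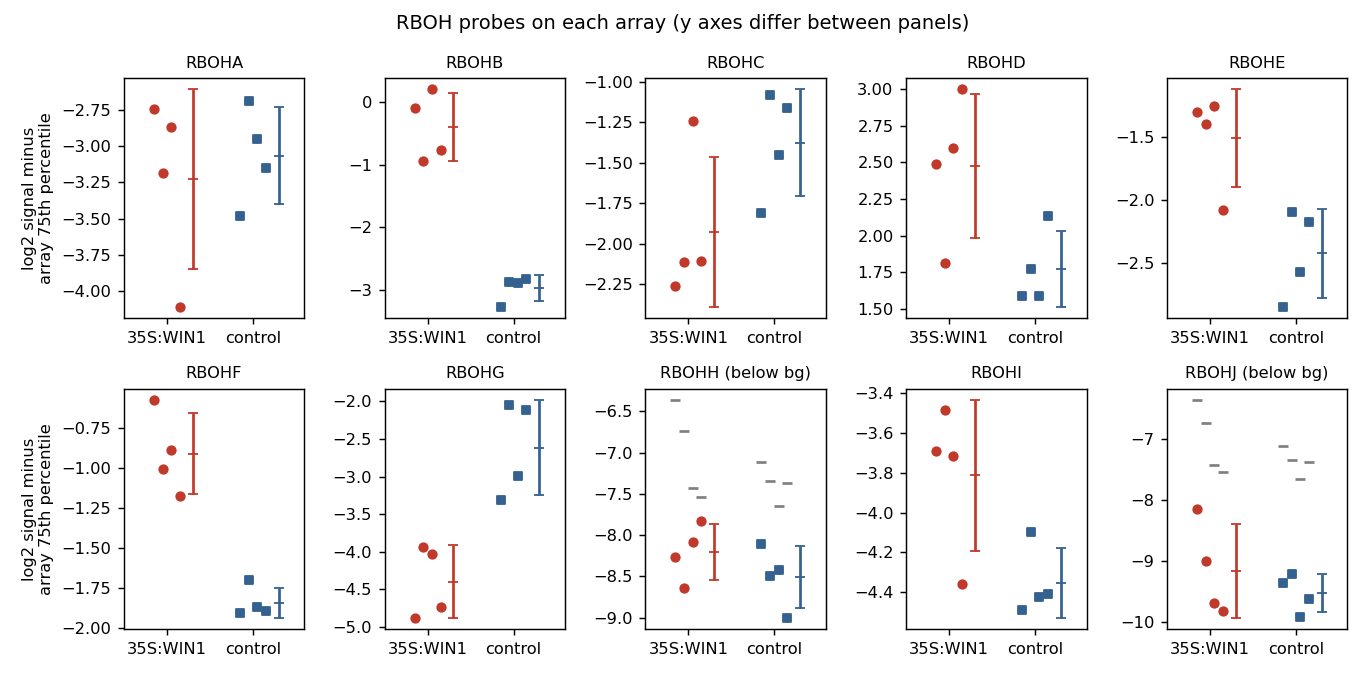
Log2 signal minus the array's 75th percentile for each RBOH probe, with 35S:WIN1 arrays as circles and vector control arrays as squares in replicate order; bars give the mean ± SD, and y axes differ between panels. The groups are apart for RBOHB, RBOHE, RBOHF and RBOHG. Grey dashes in the panels of RBOHH and RBOHJ mark each array's detection floor, and all points of these probes lie below it.

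RBOHH and RBOHJ, the pair that acts in growing pollen tubes, gave no measurable signal. The RBOHH probe had processed signals of 3.24, 3.18, 8.41 and 10.9 intensity units in 35S:WIN1 replicates 1 to 4 and 6.48, 5.85, 6.55 and 4.58 in control replicates 1 to 4. The RBOHJ probe had 3.51, 2.48, 2.76 and 2.77 in 35S:WIN1 and 2.74, 3.57, 2.32 and 3.0 in controls. The lowest signal well above background was 11.9 to 13.3 on 35S:WIN1 arrays and 11.2 to 14.2 on control arrays, so no fold is given. Of the 5 pollen markers, ANX1, ANX2 and AGP11 were not well above background on any array. AGP6 was the marker tested and was lower (log2 difference -2.09, SE 0.37, limma adjusted p = 0.00418), well above background on 2 of 4 35S:WIN1 arrays and 4 of 4 control arrays. Its control arrays alone met the detection filter. With normexp background correction AGP6 was at -0.24 and was not called. The summed level of the 5 markers was 0.0179 to 0.0291 in 35S:WIN1 and 0.0435 to 0.109 in controls, as a multiple of the 75th percentile, without overlap between groups. That sum includes 3 probes not well above background on any array, so it says little beyond AGP6.

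Arrays of 35S:WIN1 differed from each other in a way shared by several members. Relative to the control mean, replicate 4 was the lowest of the transgenic arrays for RBOHA (-1.04), RBOHE (0.34) and RBOHF (0.67), and the highest for RBOHD (1.23). The median over the 8 members was 0.69, 0.44, 0.73 and 0.17 on 35S:WIN1 replicates 1 to 4 and -0.36, 0.28, -0.07 and 0.18 on control replicates 1 to 4. Replicate 4 was also the 35S:WIN1 array with the lowest WIN1 value, and its part in these differences was not tested. Across the 8 arrays, deviations from the group mean correlated with a median r of 0.61 over the 21 pairs of members without RBOHD (0.00049 to 0.88) and of -0.15 over the 7 pairs with RBOHD (-0.68 to 0.35). These correlations describe arrays that share their scaling and are few.

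**Figure D3:**
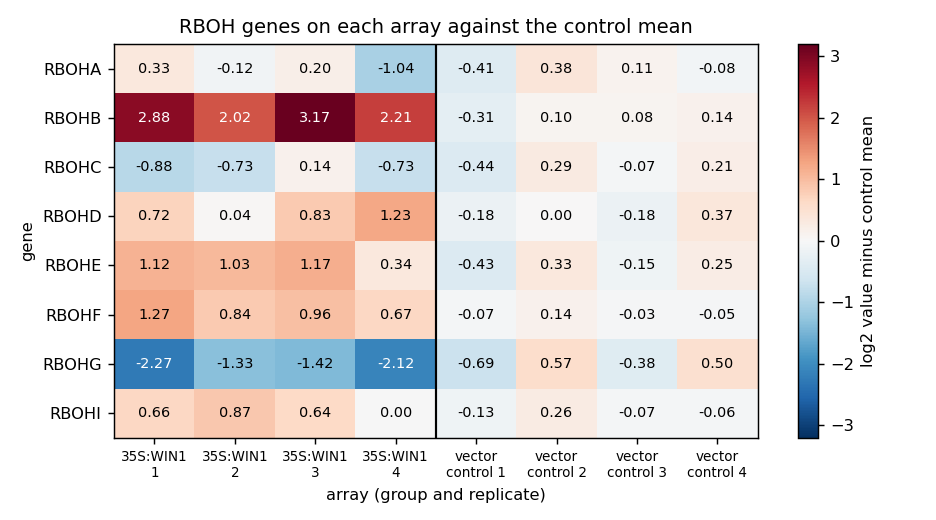
Log2 value of each tested RBOH gene on each array minus the mean of the vector control arrays, in columns by array and rows by gene. RBOHB is 2.02 to 3.17 above the control mean on all 35S:WIN1 arrays and RBOHG at -2.27 to -1.33 relative to it, while RBOHD and RBOHI vary between replicates 2 and 4.

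Ratios between members within an array do not depend on how arrays are scaled, and their comparison was chosen after the values were seen. Over the 28 pairs of tested members, the ratio did not overlap between groups for 20, each with an exact two-sided permutation p of 0.0286, the smallest that 4 against 4 allows, and 0.04 after Benjamini-Hochberg adjustment over the 28. That is 71.4% of pairs, beside 37.6% of all pairs of the 18764 genes above background on all arrays. The 28 pairs share 8 members and are not independent, so the count describes these probes only. RBOHB gained on every other member. The log2 ratio of RBOHB to RBOHF shifted by 1.64, of RBOHB to RBOHD by 1.87 and of RBOHB to RBOHG by 4.35, in 35S:WIN1 relative to controls. RBOHG lost against every other member, by 2.71 relative to RBOHF. The ratio of RBOHE to RBOHF shifted by -0.02 (SD 0.27 in 35S:WIN1 and 0.30 in controls, exact permutation p = 0.943), and that of RBOHD to RBOHF by -0.23 (SD 0.59 and 0.28, exact permutation p = 0.6).

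The scale set the sign of the smaller differences. The 8 spike-in RNAs that every array detected were mostly higher relative to the 75th percentile on 35S:WIN1 arrays. Their median stood 4.38, 4.29, 3.82 and 2.77 log2 units above it in 35S:WIN1 replicates 1 to 4. In control replicates 1 to 4 it stood 2.78, 2.14, 2.25 and 1.55 above, so the groups overlapped at 35S:WIN1 replicate 4. Scaling on the spike-in median moved the median of all genes to -1.68, a shift of -1.64. On that scale RBOHB was at 0.94 (adjusted p = 0.100), RBOHE at -0.72, RBOHF at -0.70, RBOHD at -0.93, RBOHI at -1.09 and RBOHG at -3.42. Relative to the median of all genes, the 8 members were 0.67 higher on either scale. Of the calls, RBOHG lower held under all 21 alternatives, RBOHB higher under 20 of 21, RBOHF higher under 19 and RBOHE higher under 13. The spike-in scale moved genes down in common, so it was no check of the lower call of RBOHG.

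**Figure D4:**
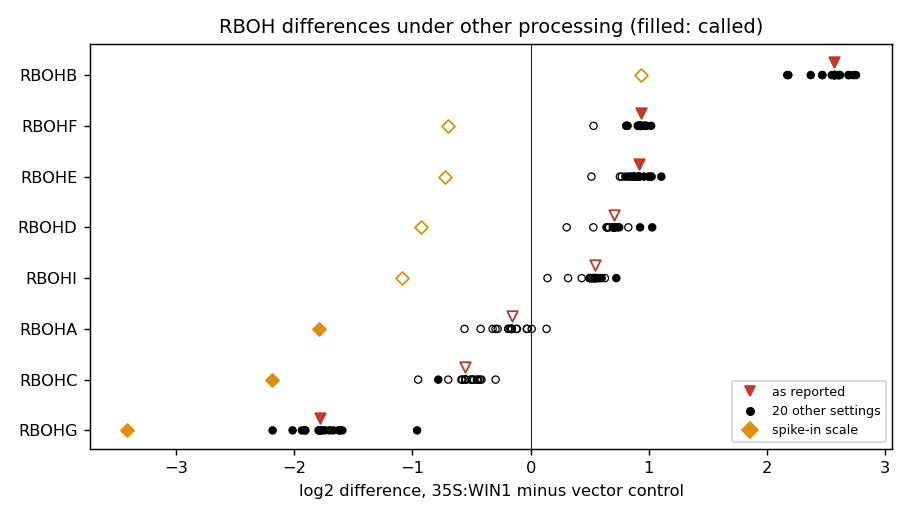
Log2 difference of each tested RBOH gene as reported (triangles), under 20 other processing settings (circles) and on the spike-in scale (diamonds); filled symbols passed an adjusted p of 0.05. RBOHB stays between 2.17 and 2.75 and RBOHG below -0.96 outside the spike-in scale. RBOHE, RBOHD, RBOHI and RBOHC pass in only some settings, and RBOHF does not pass with the deposited values or on the spike-in scale.

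Of the 32 listed regulators of RBOH activity, 30 were tested, with a median log2 difference of 0.24. Limma called 13 higher and 2 lower (15 and 4 at an unadjusted p under 0.05). That is 50% called, beside 35.3% of all genes (15.1% higher and 20.2% lower). FLS2, the flagellin receptor that triggers the RBOHD burst, read 0.80, 0.66, 0.60 and 1.03 in 35S:WIN1 replicates 1 to 4 and -0.64, -0.69, -0.50 and -0.50 in control replicates 1 to 4, with no overlap. Its log2 difference was 1.35 (SE 0.12, limma adjusted p = 0.000197). RIPK, a cytoplasmic kinase that phosphorylates RBOHD, rose by 1.26 (SE 0.18, adjusted p = 0.00153), and XLG2, an extra-large G protein of the same immune complex, by 1.07 (SE 0.12, adjusted p = 0.000526). CBL1, a calcium sensor that acts with CIPK26 on RBOHF, rose by 0.78 (SE 0.12, adjusted p = 0.00223).

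BIK1, another cytoplasmic kinase that phosphorylates RBOHD, was higher by 0.46 (SE 0.14, limma adjusted p = 0.0336), and the calcium-dependent kinase genes CPK4, CPK5, CPK6 and CPK11 by 0.41 to 0.88. The 2 called lower were SGN3, the receptor that monitors Casparian strip closure, by 0.50, and CBL9, a close relative of CBL1, by 0.40. SGN1, by contrast, was higher by 0.84 (SE 0.28). CIPK26, the partner of CBL1, was at -0.38 and CRK2, another listed regulator, at -0.37, and neither was called. OST1, the abscisic acid kinase that acts on RBOHF in guard cells, was at -0.10 (adjusted p = 0.632), and ROP2, a small GTPase of root hair growth, at -0.10 (adjusted p = 0.669). The count changed with the arrays and the scale used: 7 to 11 were higher with 1 array left out, and 5 were higher and 1 lower when the pair of dimmest arrays, from 35S:WIN1 replicates 1 and 2, was left out, where the median was 0.36. With the deposited values limma called 0 higher and 0 lower (2 higher and 1 lower at an unadjusted p under 0.05). On the spike-in scale 0 were higher, also at an unadjusted p, and 21 lower, where FLS2 was at -0.28 and RIPK at -0.38. Of all 20441 genes tested, 17160 were lower on that scale.

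Among genes named as enzymes that remove superoxide and hydrogen peroxide, the calls were all lower. Whether each product has that activity was not tested. Of 18 listed superoxide dismutase, catalase and ascorbate peroxidase genes, 16 were tested, and limma called 0 higher and 7 lower (0 and 11 at an unadjusted p under 0.05), with a median of -0.69, and 9 were not called. The 43.8% called stands beside 35.3% of all genes (20.2% lower). CAT2, the main leaf catalase, read 1.66, 1.41, 1.88 and 2.89 in 35S:WIN1 replicates 1 to 4 and 2.96, 3.32, 3.13 and 3.97 in control replicates 1 to 4. It fell by 1.39 on the log2 scale (SE 0.34, limma adjusted p = 0.0162), with only a narrow gap between groups. The other named members work in the chloroplast: APX4 fell by 1.04 (SE 0.15, adjusted p = 0.00178), TAPX by 0.75 (SE 0.14, adjusted p = 0.00472) and FSD2 by 0.62 (SE 0.15, adjusted p = 0.0146).

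FSD1, an iron superoxide dismutase gene that lies next to RBOHG, spread widely. It read -1.48, -1.05, 2.51 and 4.36 in 35S:WIN1 replicates 1 to 4 and 4.17, 3.93, 3.47 and 4.43 in control replicates 1 to 4, and did not pass (adjusted p = 0.0969). The dimmest arrays, 35S:WIN1 replicates 1 and 2, were the low ones. Without these arrays 2 scavenger genes were lower in place of 7, with the deposited values 4, and on the spike-in scale 15.

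The FRO ferric reductases share the flavocytochrome fold of RBOH proteins. Of 8 listed, 7 were tested, and limma called 0 higher and 2 lower (2 and 2 at an unadjusted p under 0.05), with a median of -0.58. The 28.6% called lies below the 35.3% of all genes, and the median was 0.16 without control replicate 3. FRO6, of green tissue, read -1.45, -1.10, 0.24 and 1.38 in 35S:WIN1 replicates 1 to 4 and 3.24, 3.25, 3.02 and 3.06 in control replicates 1 to 4. All 35S:WIN1 arrays were below all controls, and FRO6 was 10.4-fold lower (log2 difference -3.38, SE 0.56, limma adjusted p = 0.00316). FRO7, the chloroplast member, fell by 2.48 (SE 0.65, adjusted p = 0.0194). FRO1 at 1.42 (adjusted p = 0.0573) and FRO3 at 1.27 (adjusted p = 0.100) did not pass. Without the dimmest arrays FRO6 was at -2.34 and FRO7 at -1.32 (adjusted p = 0.0529), and 1 FRO gene was called lower. On the spike-in scale 0 were higher, also at an unadjusted p, and 4 lower, beside 17160 lower of all 20441 genes tested.

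Genes that sense or respond to hydrogen peroxide were mostly higher. All 12 listed were tested, and limma called 9 higher and 0 lower (also 9 and 0 at an unadjusted p under 0.05), with a median of 2.04. That is 75% called, beside 35.3% of all genes (15.1% higher). With genes kept only if well above background on all 8 arrays, 10 were tested and 8 were higher. AT1G57630, called higher at 3.57, dropped out under that filter, so it may have entered the test through a single group. FOX1, an FAD-linked oxidoreductase of defence metabolism, read -0.01, -0.44, -0.01 and 0.14 in 35S:WIN1 replicates 1 to 4 and -5.02, -3.57, -3.66 and -3.86 in control replicates 1 to 4. The groups were far apart, and FOX1 was 15.5-fold higher (log2 difference 3.95, SE 0.32, limma adjusted p = 0.000128). AT1G19020, a small protein of unknown function that responds to oxidants, was 10.3-fold higher (SE 0.18 on the log2 scale), ZAT12, a zinc-finger factor of oxidative stress, 8.66-fold (SE 0.30), and AT1G05575 6.30-fold (SE 0.31).

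GHR1, a receptor-like protein of guard cell hydrogen peroxide signalling, rose by 0.83 (SE 0.19, limma adjusted p = 0.0122). HPCA1, which senses hydrogen peroxide at the cell surface, was at 0.03 (adjusted p = 0.892). On the spike-in scale 4 genes of the list were higher and 1 lower, beside 402 higher and 17160 lower of all 20441 genes tested. FOX1 was still at 2.32 there, AT1G19020 at 1.74 and ZAT12 at 1.48. Without the dimmest arrays 6 were higher and 0 lower.

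**Figure D5:**
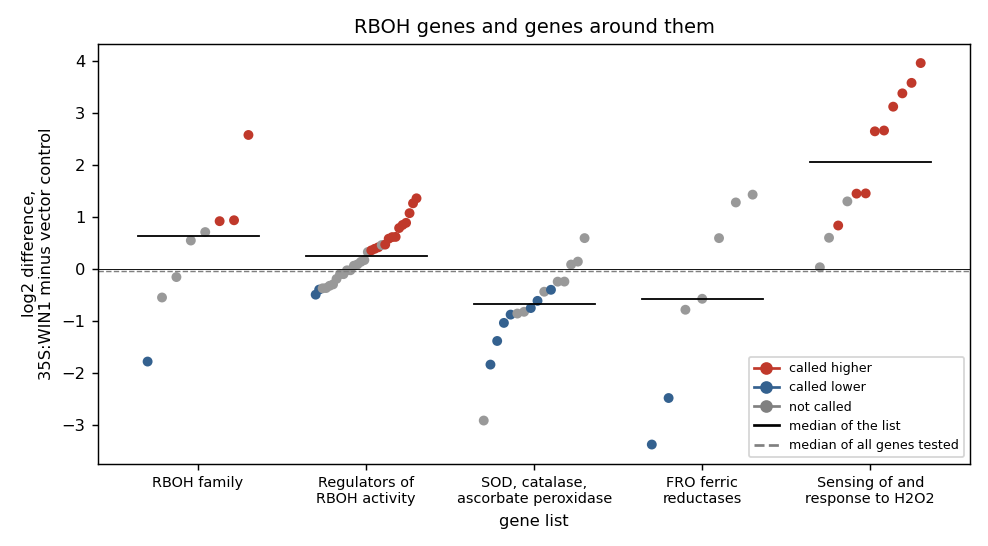
Log2 difference (35S:WIN1 minus vector control) of each tested gene in the RBOH family and in 4 lists of related genes, coloured by call; black bars are list medians and the dashed line is the median of all genes tested. List medians are 0.62, 0.24, -0.69, -0.58 and 2.04 from left to right, and the hydrogen peroxide list reaches 3.95.

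Markers of the cell types in which RBOH enzymes act did not all follow the members. Root hair markers, beside RBOHC, were higher for 3 of 8 (RHD6 by 1.09, RSL4 by 1.05 and EXPA7 by 0.97) by limma, with none lower even at an unadjusted p under 0.05. Their summed level was 1.63 to 3.67 in 35S:WIN1 and 1.51 to 1.86 in controls, and without the dimmest arrays 0 of 8 were called (5 higher at an unadjusted p under 0.05). Endodermis markers, beside RBOHF and SGN3, were lower for 4 of 7 tested, CASP1 to CASP4 by 0.85 to 1.88, and higher for MYB36, with sums of 2.38 to 4.97 in 35S:WIN1 and 4.12 to 7.44 in controls. With 1 array left out, 1 to 4 endodermis markers were lower and 0 to 1 higher (4 to 5 and 1 at an unadjusted p under 0.05). Guard cell markers, beside RBOHD and RBOHF, were lower for 5 of 6, with sums of 2.11 to 2.93 in 35S:WIN1 and 3.86 to 7.57 in controls. The share called was 37.5% for root hair, 71.4% for endodermis and 83.3% for guard cell markers, beside 35.3% of all genes. In the same whole-seedling samples RBOHF was higher and most tested endodermis and guard cell markers were lower. However, the endodermis sums overlapped between groups, and the endodermis calls varied with the array left out. The cells in which RBOHF differed are unknown, and a link to these markers was not tested.

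Organ markers were detected in both groups. Shoot markers were lower for 2 of 4 and not higher for any (50% called, beside 35.3% of all genes). Their sums were 149 to 230 in 35S:WIN1 and 176 to 211 in controls. LHCB2.1, called lower, was not well above background on all 8 arrays, and with that filter 1 of 3 shoot markers was lower. With 1 array left out, 0 to 2 shoot markers were lower (2 to 3 at an unadjusted p under 0.05). Root markers were higher for 2 and lower for 2 of 5 (80% called). Of these, MRN1 was well above background on 4 of 4 35S:WIN1 arrays but 1 of 4 control arrays, and NRT2.1 and IRT1 on 2 of 4 35S:WIN1 arrays and 4 of 4 control arrays, so they could enter the test through one group. The root marker sums were 55.1 to 89.8 in 35S:WIN1 and 35.5 to 59.0 in controls. The part of cell-type or organ make-up in the RBOH differences was not tested.

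For each tested member the most similar patterns were sought among 18756 other genes above background on all arrays, by Pearson r over the 8 arrays, as a description. RBOHB was most like AT4G23050 (r = 0.991), RBOHE like LigB (0.997), RBOHF like AT5G41170 (0.997) and RBOHG like AT2G32430 (0.987). RBOHD was most like AT5G61890 (0.990), RBOHI like AT1G14210 (0.987), RBOHC like AT1G33610 (0.980) and RBOHA like MYB68 (0.956). For RBOHF, AT5G41170 was also first by deviations from the group mean (r = 0.985).

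The loci are spread over chromosomes 1 (RBOHB, RBOHE, RBOHF), 3 (RBOHJ), 4 (RBOHG, RBOHI) and 5 (RBOHA, RBOHC, RBOHD, RBOHH). Of the 40 positions held by the 2 nearest genes on each side, 31 were tested, and 6 were higher and 4 lower, which is 32.3% called beside 35.3% of all genes. The largest neighbour difference was that of AT1G19210, the second gene from RBOHE, at least 33.9-fold higher. It was well above background on 4 of 4 35S:WIN1 arrays and 0 of 4 control arrays. It thus entered the test, and the 6 called higher, through 35S:WIN1 alone, so no p-value is given. Next to RBOHF, which rose, AT1G64065 rose by 2.64 (SE 0.14, limma adjusted p = 2.36e-05), whereas the gene on its other side, AT1G64050, was at -0.27 (adjusted p = 0.129). The tested genes that overlap a higher member did not pass: RPT5B, at RBOHB, was at -0.04 and AT1G19240, at RBOHE, at -0.19.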

How the data were processed

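Total RNA (1 µg) was labelled with Cy3, per the labels' protocols, and the submitters' processing notes name Agilent Feature Extraction 9.1.3.1 for the scanner files. The processed signal is a background-subtracted intensity, per the file headers, and is not scaled between arrays. A deposited series table holds this intensity divided by 1 constant per slide (1341 for 35S:WIN1, 1312 for the control). Its column medians were 0.0464, 0.0588, 0.114 and 0.125 for 35S:WIN1 and 0.0853, 0.111, 0.112 and 0.126 for the control. It is linear and uncentred and has no direction to settle, but the choice of its constants is unknown.

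Each value was the log2 processed signal less that array's 75th percentile. Spots marked as outliers were left out and spots of a probe averaged. A gene was its brightest probe, kept if well above background on 4 or more of the 8 arrays. Differences were tested with limma 3.58.1 (lmFit, eBayes; R 4.3.3), two-sided, Benjamini-Hochberg adjusted over 20441 genes, called at 0.05. A fold is 2 to the power of the log2 difference. Names came from RefSeq, and neighbours and overlaps from its gene starts and ends. No coordinates are printed, since the files name no build. Arrays limit the precision by their number.

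Members, gene lists and tests were chosen with earlier results of these data known. Named genes were all members, WIN1 and up to 4 genes per related list with the smallest p. Other list genes, markers and neighbours are named for their role or place, chosen after their values were seen. Alternatives were other scalings, background corrections, detection filters, variance models, probe summaries, array weights, a replicate block and left-out arrays.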

Additional observations from a re-analysis of the deposited data

Results flagged for a closer look

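Among the 54 groups of 4 arrays examined, over members and named genes, an array stood apart from the rest of its group in 2, and chance alone does so in about 1 in 20. RBOHB on vector control replicate 1 was at -3.28 on the log2 scale, while the other control arrays lay between -2.89 and -2.83. RBOHC on 35S:WIN1 replicate 3 was at -1.24, while the other 35S:WIN1 arrays lay between -2.26 and -2.10. Both values are those given in the report, and RBOHC passed the threshold without that array but not with any other single array left out.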

How the results depend on the processing

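The 3078 genes higher and 4138 lower in 35S:WIN1 became 402 and 17160 on the spike-in scale, 905 and 2088 with the deposited values, and 1864 and 2393 without the 2 dimmest arrays. Members called higher by limma numbered 0 on the spike-in scale (0 at an unadjusted p under 0.05), 1 (RBOHB) with the deposited values and 5 with array weights, which added RBOHD and RBOHI. Members called lower numbered 3 on the spike-in scale (RBOHA, RBOHC and RBOHG). With 1 array left out, 2204 to 3628 genes were higher and 2918 to 4630 lower, with 2 to 4 members higher and 1 to 2 lower. The share of calls that were higher was 42.7%, against 2.29% on the spike-in scale and 30.2% with the deposited values. The sign turned on the spike-in scale for RBOHD (-0.93), RBOHE (-0.72), RBOHF (-0.70) and RBOHI (-1.09), which is the shift by construction. It also turned for RBOHA, to 0.0094 with normexp and, with 1 array left out, within a range of -0.32 to 0.13 (highest without 35S:WIN1 replicate 4), none of them called. RBOHE lost its call without the dimmest arrays (adjusted p = 0.131), and RBOHE and RBOHF with the deposited values (0.381 and 0.333). The cause was not tested. On the spike-in scale limma gave every gene the same SE, 0.55, so its p-values rest on the spread common to all genes.

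Same-numbered samples deviated with r of -0.08, 0.11, 0.19 and 0.04, and only replicate 3 was closest to its own number. The 75th percentile rose with replicate number in both groups, from 997 to 2490 in 35S:WIN1 and from 1790 to 2354 in controls. Whether same-numbered samples shared an order or a batch was not tested. With the replicate number as a block, 2583 genes were higher and 3458 lower. In that fit RBOHE had an adjusted p of 0.0558 and RBOHD of 0.0489, and calls of the other members were as reported.

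Precision is limited by 4 arrays a group and, for RBOHH and RBOHJ, by signals below background.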
